A study of Mus musculus with 3 samples.

Results

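Matrix metalloproteinases (MMPs), ADAMTS proteases and their tissue inhibitors (TIMPs) were described in NIH3T3, a fibroblast line that arose from mouse embryos, as control cells and as cells overexpressing mtYAP or wild-type YAP. The genes were all those named alone by a probe set whose symbol is Mmp, Adamts, Adamtsl or Timp followed by a number, with or without a final a or b. They were 42 of the 18193 genes measured, with 18 MMPs, 15 ADAMTS proteases, 5 ADAMTS-like proteins and 4 TIMPs. RNA of each of the 3 conditions was hybridized to 1 Affymetrix mouse genome array, without replicates, so that errors and tests cannot be given for any of the values. In mtYAP the serine at position 112, which the LATS kinases of the Hippo pathway phosphorylate, is replaced by alanine. All cells were of the NIH/Swiss strain and were grown in medium with 10% calf serum. Both overexpressing lines were made by retroviral infection and puromycin selection and were stable lines, whereas the control is labelled untransduced.

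MMPs are zinc-dependent endopeptidases that cleave collagens, gelatin and other components of the extracellular matrix, and most are secreted as inactive proenzymes. ADAMTS proteases are related secreted enzymes with thrombospondin repeats that cleave proteoglycans, procollagens and other matrix proteins, and ADAMTS-like proteins share their layout without the protease domain. TIMPs bind the active site of MMPs and inhibit them, and fibroblasts express some members of each of these families.

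The deposited values are log2 levels, here called levels, and the level of a gene is the mean over its probe sets. A difference of 1 on this scale is 2-fold. Genes whose mean stayed under a level of 6 on all 3 arrays mostly lie near the background, so that the size of their differences is uncertain. This held for 32 of the 42 genes. Among the 32, Adamts4, Adamts6, Adamts10, Adamts12 and Adamts16 each had a probe set that reached 6 in control or YAP, averaged with a dimmer one. The arrays had medians of 4.56 to 4.60. Of the fibroblast markers Col1a1, Col1a2, Col3a1, Thy1, Pdgfra, Pdgfrb, Vim and S100a4, all 8 reached 6. The control's labels name NIH3T3 except for its free text, which speaks of embryonic stem cells, and the 7 markers of such cells stayed between 1.94 and 4.38 at their highest. No marker of macrophages, endothelium or epithelium reached 6, with highest levels of 5.99, 4.96 and 4.73. The macrophage marker Cd14 came close to the limit, at 5.99 in YAP. Yap1 had levels of 8.57, 7.89 and 8.06 in control, mtYAP and YAP. Its vectors held the coding region alone, and the sources used here do not say where on the transcript its probe sets lie, so that these levels check neither label.

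In cells overexpressing mtYAP, the gelatinase gene Mmp2, the membrane-type protease gene Mmp14 and the proteoglycan-cleaving protease gene Adamts1 lay more than 2-fold below control, and the inhibitor gene Timp3 lay 3.89-fold above it. In cells overexpressing wild-type YAP, these 4 genes differed from control in the same directions by less than 2-fold. Of the 42 genes, 6 lay below −1 in mtYAP, where 4.06% of all genes did, and 1 lay above 1, where 3.77% of all genes did. In YAP, 3 of the 42 genes lay below −1, against 1.26% of all genes, and 1 lay above 1, against 1.36%. The genes below −1 in mtYAP were Adamts1, Mmp14, Adamts7, Mmp2, Mmp3 and Adamtsl4, and those in YAP were Mmp9, Timp4 and Mmp3. Of these, only Adamts1, Mmp14 and Mmp2 reached a level of 6. The median difference of the 42 genes was −0.15 in mtYAP and −0.11 in YAP, beside 0.02 and −0.003 over all genes. Since 1 control array serves both comparisons, the values of a gene in them are not independent. Of the 10 genes that reached 6, 3 lay below −1 and 1 above 1 in mtYAP, against 8.22% and 7.66% of all genes that reached 6. In YAP these counts were 0 and 1, against 2.3% and 2.72%. At a limit of 1.5-fold, 15 of the 42 genes lay below and 3 above control in mtYAP, against 9.61% and 9.46% of all genes. In YAP, 9 lay below and 2 above at this limit, against 3.88% and 4.71%. Of the 10 genes that reached 6, 7 lay below control by any amount in mtYAP and 7 in YAP, against 51.3% and 45.5% of all genes that reached 6. Adamtsl5, 1 of these 7, reached 6 in control and YAP but not in mtYAP.

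**Figure D1:**
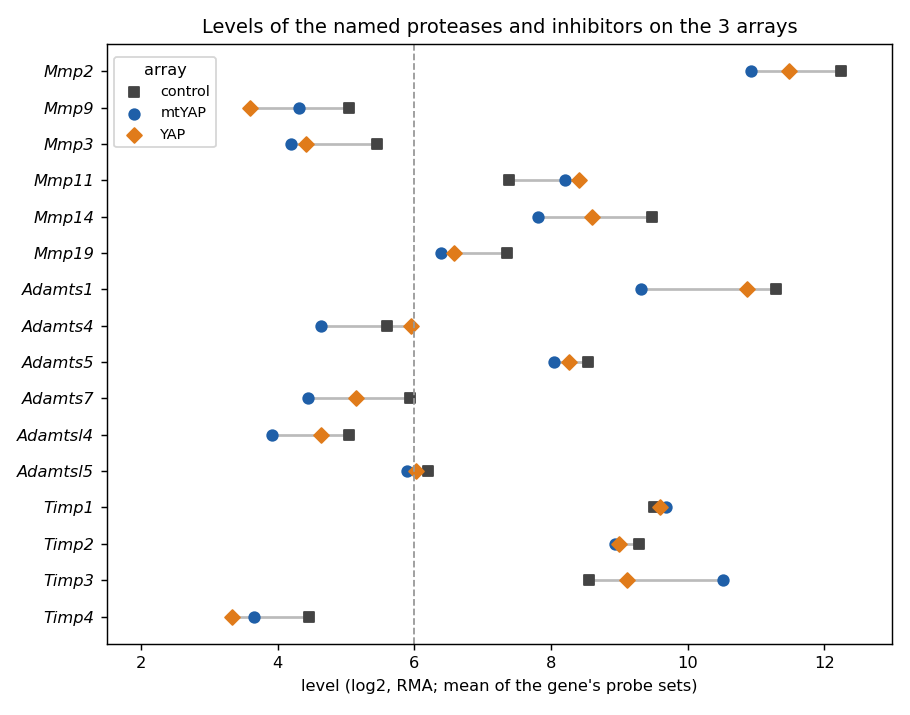
Level of 16 genes (horizontal axis, log2) on the control (squares), mtYAP (circles) and YAP (diamonds) arrays, with a grey line from the lowest to the highest level and a dashed line at 6. The genes reached 6 or differed by more than 1 between 2 arrays. Timp3 is highest in mtYAP at 10.52, whereas Mmp2, Mmp14 and Adamts1 are highest in control.

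The promoters of Adamts1, Mmp14, Timp3 and Mmp11 are shown because these genes reached a level of 6 and lay past a 2-fold difference in mtYAP or YAP, and those of Mmp3 and Mmp13 because they stand for the MMP gene cluster of chromosome 9. The promoter table, from RefSeq on build GRCm38.p6, held 27 of the 42 genes, and Mmp2 was not among them. Each sequence is the 250 bases before the start of the gene, 5′ to 3′ on the strand of the gene. The windows are chr16:85803114-85803363 (minus strand) for Adamts1, chr14:54431348-54431597 (plus strand) for Mmp14, chr10:86300162-86300411 (plus strand) for Timp3, chr10:75932503-75932752 (minus strand) for Mmp11, chr9:7445572-7445821 (plus strand) for Mmp3 and chr9:7272264-7272513 (plus strand) for Mmp13. Capitals mark matches on either strand to the letters TGANTCA for AP-1, GGAATG for TEAD, TATAAA for the box of that name or GGGCGG for the GC box, where N is any base, and no match in these 6 windows overlaps another.
Adamts1: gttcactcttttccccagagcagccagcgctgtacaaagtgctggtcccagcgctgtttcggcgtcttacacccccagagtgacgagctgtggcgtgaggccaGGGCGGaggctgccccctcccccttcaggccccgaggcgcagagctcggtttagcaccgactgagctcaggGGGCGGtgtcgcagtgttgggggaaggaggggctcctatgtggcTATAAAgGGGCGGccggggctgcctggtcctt
Mmp14: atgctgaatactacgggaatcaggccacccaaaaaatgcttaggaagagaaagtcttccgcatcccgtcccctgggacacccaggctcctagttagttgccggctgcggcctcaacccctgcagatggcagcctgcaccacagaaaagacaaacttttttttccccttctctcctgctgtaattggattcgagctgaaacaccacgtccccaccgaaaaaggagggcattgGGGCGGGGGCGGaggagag
Timp3: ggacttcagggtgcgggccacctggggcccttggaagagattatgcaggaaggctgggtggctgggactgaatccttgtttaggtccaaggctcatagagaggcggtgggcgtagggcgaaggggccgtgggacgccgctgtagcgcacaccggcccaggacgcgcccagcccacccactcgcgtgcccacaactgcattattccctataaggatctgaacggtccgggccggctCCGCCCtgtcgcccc
Mmp11: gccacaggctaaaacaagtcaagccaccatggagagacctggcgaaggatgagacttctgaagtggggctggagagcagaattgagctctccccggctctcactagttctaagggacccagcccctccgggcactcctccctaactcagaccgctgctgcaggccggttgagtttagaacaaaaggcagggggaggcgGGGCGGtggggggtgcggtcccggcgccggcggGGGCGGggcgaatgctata
Mmp3: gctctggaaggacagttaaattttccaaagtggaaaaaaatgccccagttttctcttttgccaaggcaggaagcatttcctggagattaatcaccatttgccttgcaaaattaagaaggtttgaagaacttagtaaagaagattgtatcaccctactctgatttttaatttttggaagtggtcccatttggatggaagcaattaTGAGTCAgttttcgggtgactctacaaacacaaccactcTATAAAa
Mmp13: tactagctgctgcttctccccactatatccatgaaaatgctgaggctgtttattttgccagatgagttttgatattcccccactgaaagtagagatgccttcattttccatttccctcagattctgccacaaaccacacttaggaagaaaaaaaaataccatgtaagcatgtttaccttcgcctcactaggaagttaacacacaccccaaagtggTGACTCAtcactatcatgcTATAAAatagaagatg

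In these windows, Adamts1 held a TATA box that began 32 bases before the start and 3 GC boxes, Mmp14 and Mmp11 held 2 GC boxes each and Timp3 held 1. Mmp3 and Mmp13 instead held an AP-1 match, 46 and 35 bases before the start, followed by a TATA box. None of the 6 held the TEAD letters. The 27 genes had 30 promoter windows in the table, with a pair each for Mmp7, Mmp12 and Mmp23. The TEAD letters were found in 1 of the 30 (3.33%), that of Timp1, where 12.6% of all 32851 promoter windows held them. The AP-1 letters were found in 8 of the 30 windows (26.7%), each of another gene, against 6.75% of all windows, and the TATA letters in 9 of the 30, against 12.4%. The 8 genes with AP-1 letters were Mmp1a, Mmp1b, Mmp3, Mmp7, Mmp10, Mmp12, Mmp13 and Mmp20, all MMP genes of chromosome 9. The GC box was found in 15 of the 30 windows, against 32.7% of all windows. A match of letters is a description of the sequence and not a site.

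Of the gelatinases, which degrade denatured collagen and collagen IV, Mmp2 had a level of 12.24 in control, 10.93 in mtYAP and 11.48 in YAP. It was highest in control and lowest in mtYAP, with differences of −1.32 (2.49-fold) in mtYAP and −0.76 (1.69-fold) in YAP. Its 2 probe sets gave −1.38 and −1.25 in mtYAP and −0.78 and −0.74 in YAP. Mmp9, the other gelatinase, stood at 5.05, 4.31 and 3.60 in control, mtYAP and YAP, under 6 on every array. Unlike Mmp2 it was lowest in YAP, with differences of −0.74 in mtYAP and −1.45 in YAP.

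Of the membrane-type MMPs, which are anchored at the cell surface, Mmp14 encodes MT1-MMP, a collagenase that also activates the proenzyme of MMP2. Mmp14 had a level of 9.48 in control, which was 7.82 in mtYAP and 8.60 in YAP, so that it lay below control by 3.17-fold in mtYAP (log2 difference −1.66) and by 1.84-fold in YAP (−0.88). The 3 probe sets of Mmp14 lay between −1.79 and −1.58 in mtYAP and between −1.06 and −0.74 in YAP. Among the 7129 genes that reached 6, 208 had a lower difference than Mmp14 in mtYAP and 220 in YAP. Mmp16, Mmp17 and Mmp24, further members of this type, stayed under 6 with differences between 0.09 and 0.19 in mtYAP and between −0.22 and 0.00 in YAP.

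Of the stromelysins, Mmp11, which encodes stromelysin 3, an MMP activated within the cell by furin, was the MMP gene that reached 6 and stood above control. In control, mtYAP and YAP it had levels of 7.38, 8.20 and 8.41, lowest in control. It was the 1 gene of the 42 above 1 in YAP, at 1.03 (2.04-fold), and 0.999 when a smooth trend of differences with level (loess) was removed, and it stood at 0.82 (1.77-fold) in mtYAP. Mmp3, stromelysin 1, had levels of 5.45, 4.20 and 4.42 in control, mtYAP and YAP. It was lower in both lines, at −1.25 in mtYAP and −1.03 in YAP, from near the background. Mmp10, stromelysin 2, stood at 3.74 or less on every array. Mmp3, Mmp11 and Mmp10 were each read by 1 probe set.

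The collagenases Mmp1a, Mmp1b, Mmp8 and Mmp13, which cleave fibrillar collagen, stayed between 1.53 and 3.50 on the 3 arrays. Mmp13 was the furthest from control of them, at 0.79 in mtYAP and 0.78 in YAP, with a level of 1.53 in control and 2.32 and 2.31 in the lines. The matrilysin gene Mmp7 and the macrophage metalloelastase gene Mmp12 did not reach 6 either, with differences of 0.32 and −0.73 in mtYAP. Mmp19, an MMP of mesenchymal and other tissues, reached 6 with levels of 7.35 in control, 6.40 in mtYAP and 6.58 in YAP. It was highest in control, at −0.96 (1.94-fold lower) in mtYAP and −0.78 (1.71-fold lower) in YAP, and its 2 probe sets gave −0.96 and −0.95 in mtYAP and −0.57 and −0.98 in YAP. Mmp20, the enamel protease enamelysin, and Mmp23 stayed under 6 with differences of −0.06 and 0.28 in mtYAP.

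In the mouse genome, Mmp13, Mmp12, Mmp1b, Mmp3, Mmp1a, Mmp10 and Mmp8 follow each other on chromosome 9 without another protein-coding gene between them, and Mmp20 and Mmp7 are neighbours on the same chromosome. None of these 9 genes reached 6 on any array. Their differences ran from −1.25 for Mmp3 to 0.79 for Mmp13 in mtYAP and from −1.03 to 0.78 for the same genes in YAP, so that the neighbours did not share a direction. Adamts1 and Adamts5 are neighbours on chromosome 16, at −1.97 and −0.49 in mtYAP.

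**Figure D2:**
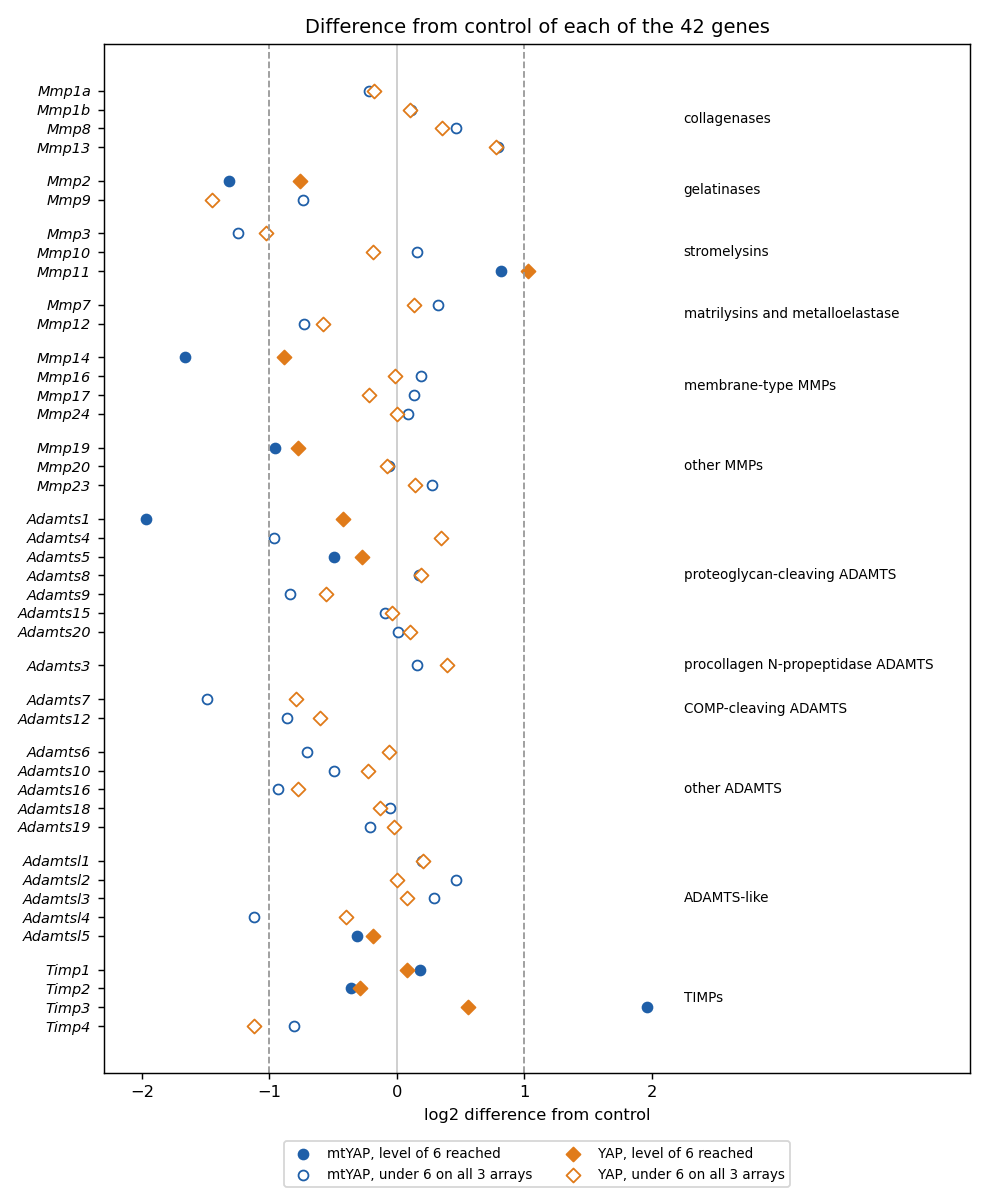
Differences of the 42 genes from control (horizontal axis, log2) in mtYAP (blue circles) and YAP (orange diamonds), grouped by role, with dashed lines at −1 and 1. Filled symbols are the 10 genes that reached a level of 6 and open symbols the 32 that did not. Of the filled symbols, Adamts1, Mmp14 and Mmp2 lie below −1 in mtYAP, Timp3 above 1 in mtYAP and Mmp11 just above 1 in YAP, at 0.999 once a loess trend is removed.

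Of the proteoglycan-cleaving ADAMTS proteases, Adamts1, which cleaves versican and aggrecan, had a level of 11.29 in control, 9.32 in mtYAP and 10.87 in YAP, from a single probe set. It was much lower in mtYAP than on either of the other arrays, with differences of −1.97 (3.92-fold) from control and −1.55 (2.93-fold) from YAP, whereas YAP lay at −0.42 (1.34-fold) from control. Among the genes that reached 6, 135 had a lower difference in mtYAP than Adamts1 and 775 in YAP. Adamts5, an aggrecanase, had levels of 8.54, 8.05 and 8.27 in control, mtYAP and YAP, with differences of −0.49 and −0.28 in mtYAP and YAP. Its 4 probe sets lay between −0.67 and −0.35 in mtYAP, and 1 of them stayed at 2.48 or less. Adamts4, another aggrecanase, went from 5.60 in control to 4.64 in mtYAP and 5.95 in YAP. It lay below control in mtYAP, at −0.97, and above it in YAP, at 0.35, and both of its probe sets did so (−1.14 and −0.79 in mtYAP, 0.13 and 0.56 in YAP). Adamts8, Adamts9, Adamts15 and Adamts20 stayed under 6, with differences from −0.84 for Adamts9 to 0.17 for Adamts8 in mtYAP.

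The proteases Adamts7 and Adamts12, which cleave the cartilage oligomeric matrix protein, both had lower levels in the lines than in control. Adamts7 stood at 5.93 in control, 4.44 in mtYAP and 5.14 in YAP, differences of −1.49 (2.81-fold) and −0.79 (1.73-fold), just under a level of 6. Adamts12 stood at −0.87 in mtYAP and −0.60 in YAP as the mean of its 2 probe sets, of which 1 had a control level of 6.70 and gave −1.61 and −1.01. Adamts3, a procollagen N-propeptidase, stayed at 3.26 or less. Of the remaining proteases, Adamts6 went from 5.97 in control to 5.27 in mtYAP and 5.91 in YAP, and Adamts16 from 5.92 to 4.99 and 5.14. The 2 probe sets of Adamts16 did not move together, at −2.04 and 0.18 in mtYAP. Adamts10, Adamts18 and Adamts19 lay between −0.50 and −0.05 in mtYAP. In all, 12 of the 15 ADAMTS genes lay below control in mtYAP, where 46.5% of all genes did, and 11 in YAP, where 50.2% of all genes did, and 13 of the 15 stayed under 6.

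The ADAMTS-like proteins have no protease activity, and several bind fibrillin microfibrils. Adamtsl5 was the member of this group that reached 6, with levels of 6.21, 5.89 and 6.02 in control, mtYAP and YAP. Adamtsl4 went from 5.04 in control to 3.92 in mtYAP and 4.64 in YAP, differences of −1.12 and −0.40. Adamtsl1, Adamtsl2 and Adamtsl3 lay above control in mtYAP, by 0.20, 0.46 and 0.29, from levels under 5.

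The TIMP genes divided. Timp3, whose product binds to the matrix and inhibits both MMPs and ADAMTS proteases, had a level of 8.56 in control, 10.52 in mtYAP and 9.12 in YAP. It was highest in mtYAP, 3.89-fold above control (log2 difference 1.96) and 2.64-fold above YAP (1.40), and YAP lay 1.47-fold above control (0.56). Its 4 probe sets gave between 1.84 and 2.05 in mtYAP and between 0.44 and 0.75 in YAP. Among the genes that reached 6, 103 had a higher difference than Timp3 in mtYAP and 705 in YAP. Timp1, an inhibitor induced by growth factors in many cells, had levels of 9.51, 9.69 and 9.59, differences of 0.18 and 0.08. Timp2, which also takes part in the activation of the MMP2 proenzyme by MT1-MMP, had levels of 9.29, 8.94 and 8.998, differences of −0.36 and −0.29. Of its 6 probe sets, 5 lay below control in both lines, between −0.67 and −0.10 in mtYAP, and the other stayed at 3.42 or less. Timp4 was under 6, at −0.81 in mtYAP and −1.13 in YAP, and −0.26 and −0.41 in its brighter probe set.

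Timp1, Timp3 and Timp4 each lie inside a synapsin gene, Syn1, Syn3 and Syn2, in the RefSeq annotation. These synapsin genes stayed under 6. Syn3, the host of Timp3, had levels of 3.47, 3.60 and 3.46 in control, mtYAP and YAP, differences of 0.13 and −0.003. Mmp19 and Timp2 overlap another gene in part, Tmem198b and Cep295nl, and which transcript each of their probe sets reads was not tested.

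**Figure D3:**
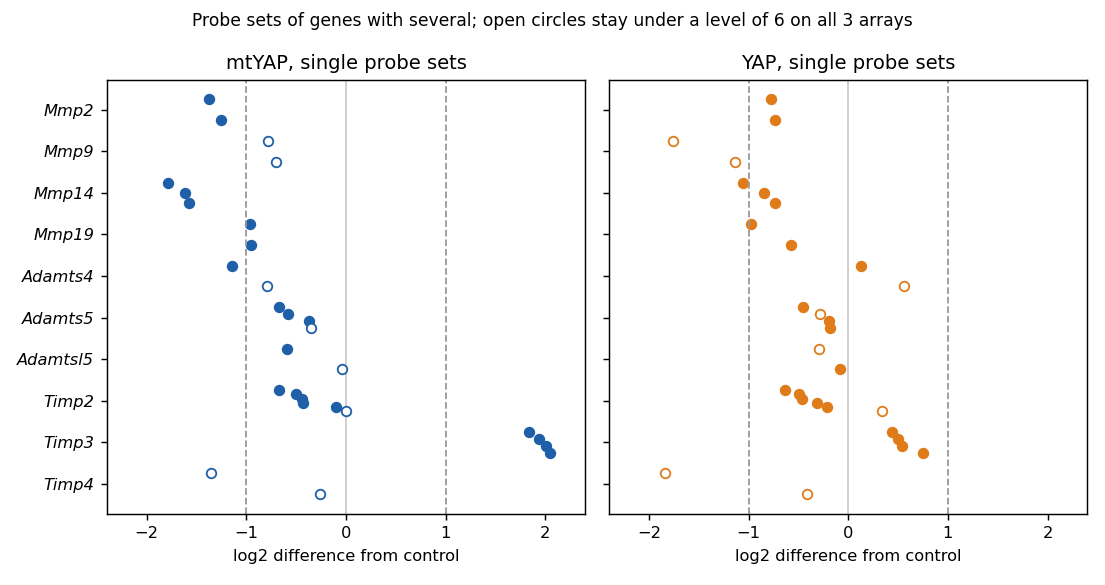
Log2 difference from control (horizontal axis) of the single probe sets of 10 genes with several probe sets, in mtYAP (left) and YAP (right), with dashed lines at −1 and 1 and open circles for probe sets under 6 on all 3 arrays. The 4 probe sets of Timp3 lie between 1.84 and 2.05 in mtYAP and the 3 of Mmp14 between −1.79 and −1.58, whereas those of Timp4 lie 1.10 apart.

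mtYAP and YAP, which differ in the serine at position 112, were also set against each other. Timp3 was the 1 gene of the 42 above 1 in mtYAP relative to YAP, at 1.40, where 0.748% of all genes lay above 1. Adamts1 at −1.55 and Adamts4 at −1.31 (2.48-fold) were the 2 genes below −1, where 1.42% of all genes lay below −1. Of the 10 genes that reached 6, 1 lay above 1 and 1 below −1, against 1.33% and 3.06% of all genes that reached 6. At 1.5-fold, 2 of the 42 genes lay above and 6 below, against 3.82% and 5.07%. Among the 7129 genes that reached 6, 33 had a higher difference than Timp3 between the lines and 54 a lower one than Adamts1. Mmp14 stood at −0.78 and Mmp2 at −0.56 between the lines, and Mmp9 at 0.71. Of the ADAMTS genes, 14 of 15 were lower in mtYAP than in YAP, where 44.8% of all genes were. Of the 15, however, 13 stayed under 6 on all 3 arrays, and some differences were as small as −0.02, for Adamts8. Of the MMP genes, 7 of 18 were lower in mtYAP than in YAP. For 9 of the 10 genes that reached 6, YAP lay nearer to control than mtYAP did, as it did for 75.3% of all genes that reached 6, and Mmp11 was the exception. Of these 10 genes, 8 were lower in mtYAP than in YAP, against 54.3% of all genes that reached 6.

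Related genes of pericellular proteolysis were taken from 3 lists. Of 20 measured genes listed for activation and inhibition of pericellular proteases, 1 lay above 1 and 4 below −1 in mtYAP. None passed either limit in YAP, and the medians were 0.03 in mtYAP and 0.14 in YAP. Of all genes, 3.77% lay above 1 and 4.06% below −1 in mtYAP, and 1.36% and 1.26% did in YAP. Plaur, the receptor of urokinase, went from 5.94 in control to 7.55 in mtYAP and 6.63 in YAP, a difference of 1.61 in mtYAP. Reck, a membrane-anchored inhibitor of MMP14, MMP2 and MMP9, went from 8.78 to 7.67 and 8.92, differences of −1.11 and 0.14, and was named after its values were seen. Plat, the tissue plasminogen activator, stood at −1.61 and −0.14, with a level of 4.71 in mtYAP, under 6. Lrp1, an endocytic receptor that clears proteases and inhibitors, stood at −1.61 and −0.76. Cst3, the cathepsin inhibitor cystatin C, stood at −1.90 in mtYAP and −0.86 in YAP.

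Of 23 other metalloproteinases, 2 lay above 1 and 3 below −1 in mtYAP, and 1 above 1 in YAP, with medians of 0.08 and 0.01, against 3.77%, 4.06% and 1.36% of all genes. Adam22 and Adam23, both ADAM proteins of the nervous system without protease activity, stood at 3.48 and −1.67 in mtYAP and 2.51 and −0.61 in YAP. Adam22 had a level of 3.895 in control, and Adam23 had levels of 4.67 in mtYAP and 5.72 in YAP. Since these levels are under 6, the size of both genes' differences is uncertain. Pappa, a protease of IGF-binding proteins, had differences of 0.73 and −0.06 in mtYAP and YAP, and Adam17, the TNF-converting enzyme, of −0.47 and −0.13. Of 26 matrix proteins, none lay above 1, whereas 4 in mtYAP and 1 in YAP lay below −1, around medians of −0.14 and 0.002. The shares of all genes below −1 were 4.06% in mtYAP and 1.26% in YAP, and those above 1 were 3.77% and 1.36%. Vcan, the proteoglycan versican, a substrate of ADAMTS1, went from 6.34 in control to 5.02 in mtYAP and 6.55 in YAP. Its differences were −1.32 and 0.21, and its level in mtYAP lay under 6. Matn2, a matrilin, stood at −2.09 and −0.34, and the basement membrane collagens Col4a1 and Col4a2 at −1.72 and −1.33 in mtYAP and at −0.995 and −1.04 in YAP. All 8 fibroblast markers also lay below control in mtYAP, with a median of −1.23, and 6 of 8 in YAP, with a median of −0.36, where 51.3% and 45.5% of all genes that reached 6 lay below control. Thy1, Pdgfra, Pdgfrb and S100a4 were the 4 below −1 in mtYAP, against 8.22% of all genes that reached 6, and their part in the differences of Mmp2, Mmp14 and Adamts1 was not tested. In such cultures, fewer cells of a type and less RNA per cell cannot be told apart.

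**Figure D4:**
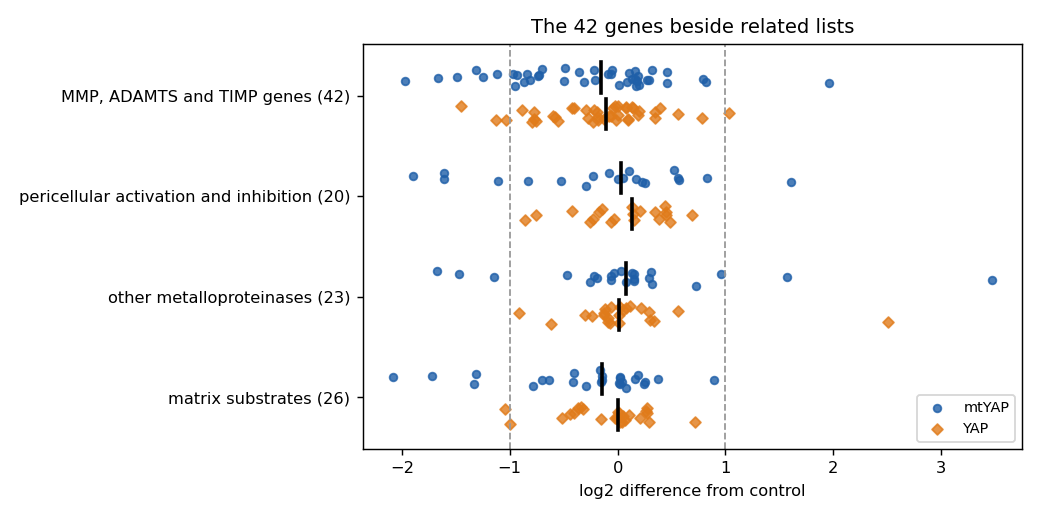
Log2 difference from control (horizontal axis) of the 42 genes and of the measured genes of 3 related lists, in mtYAP (blue circles) and YAP (orange diamonds), with the median of each as a black bar and dashed lines at −1 and 1. The vertical spread within a row has no meaning. The median of the 42 genes is −0.15 in mtYAP. The farthest point to the right is Adam22, which had a level of 3.895 in control, under 6.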

How the data were processed

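RNA of 3 conditions was measured, each on 1 array. The deposited values are log2 levels per probe set, which the authors made from Affymetrix arrays of biotin-labelled cRNA by background subtraction and robust multiarray analysis (RMA). RMA and affy stand in the submitters' notes on processing, with no version. It is not stated whether other arrays were normalized with these. Precision is limited by the number of arrays.

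Of 45037 probe sets, the 34945 that name 1 gene in the platform annotation were used. All 42 genes were found by Entrez identifier among the RefSeq genes of GRCm38.p6, and no symbol changed. They were read by 78 probe sets, of which 28 reached a level of 6. Probe sets were averaged per gene and levels subtracted between arrays. Genes whose difference lay above 1 or below −1 were counted beside the same share over all 18193 genes. No test was run. The genes with values in the text are those that reached 6 on at least 1 array or passed 1 in any comparison, others by role, and up to 4 genes of each related list with the largest difference in mtYAP among those that reached 6. The genes, lists and roles were chosen with earlier results of these data known. Of the 22, 23 and 28 genes of the related lists, 20, 23 and 26 were measured, and the others are not analysed here. Alternatives were the brightest probe set, any probe set and a level of at least 6 or 8. Others removed the median or a loess trend (span 0.3) or kept probe sets of several genes. The rest left out probe sets with names ending in _s_at, _x_at or _a_at, or used a limit of 1.5-fold. The counting was tested on simulated data. Python 3.11.15, numpy 2.4.6, pandas 2.3.3, statsmodels 0.14.6 and matplotlib 3.10.9 were used.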

Additional observations from a re-analysis of the deposited data

How the results depend on the processing

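Every difference rests on single arrays, so no spread between replicates limits or supports it, and the differences of genes under a level of 6 are limited by the signal over background. No paired analysis was possible because each condition has 1 array. The counts outside 1.5 times those reported, or at 0, are these. With a level of at least 6 or 8 required, the genes below −1 were 3 in mtYAP, 0 in YAP and 1 in mtYAP relative to YAP, in place of 6, 3 and 2. With any probe set allowed to pass, 12 lay below −1 in mtYAP, 6 did in YAP, and 2 lay above 1 in mtYAP relative to YAP. At a limit of 1.5-fold, 3 lay above and 15 below in mtYAP, 2 and 9 in YAP, and 2 and 6 in mtYAP relative to YAP. With a loess subtracted, 0 lay above 1 in YAP, since Mmp11 stood at 0.999. With the probe set of the highest mean level, 9 lay below −1 in mtYAP, which is exactly 1.5 times the 6 reported and so not outside. The medians kept their sign under the 7 alternatives that give one. Of 291 values of 16 genes under these alternatives, 3 moved by more than 1.5-fold or across the limit. They were Adamts4 (−1.14 in mtYAP) and Timp4 (−0.41 in YAP) with the brightest probe set and Mmp11. None changed sign from a value past the limit. Many of the 291 could not move, so that their number is no measure of stability. The level limits only choose genes, and a gene with 1 probe set has no other to choose. Keeping probe sets of several genes changed none of these values.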

Other observations

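The genes Papln and Thsd4 encode papilin and a thrombospondin-repeat protein, both related to the ADAMTS-like proteins, but their symbols lie outside the naming rule. In control, mtYAP and YAP, Papln stood at 3.56, 3.53 and 3.47 and Thsd4 at 3.76, 3.43 and 3.33, so that neither reached a level of 6.

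For 4 genes, the mtYAP differences of single probe sets spread over more than 1. They were Adamts16, by 2.22, Adamts12, by 1.49, Adamts9, by 1.29, and Timp4, by 1.10, all of which stayed under 6 as means of their probe sets. A single probe set reached 6 for 5 genes with means under 6, Adamts4, Adamts6, Adamts10 and, again, Adamts12 and Adamts16. These probe sets reached 6 in control or YAP and not in mtYAP.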
